A study of Homo sapiens with 15 samples.

Results

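The baseline of this myeloma study was the marrow of mice that carried MM.1S tumours and received no drug, and the levels of all counted genes in it are described here. The 3 libraries titled PBS were chosen by their labels, out of 15 libraries in 5 groups of 3. The other groups are not described, and enter only 1 alternative scaling of the libraries. The tumour cells, MM.1S, are a human line grown from multiple myeloma and carry green fluorescent protein and luciferase reporters. SCID-beige mice, which lack functional lymphocytes and have impaired natural killer cells, were injected intravenously with the cells and were included after their bioluminescence signal had passed a set level. The labels name the agent of these controls as PBS, while the treatment protocol describes 200 uL of saline, given intravenously each week. Each group held 5 mice, of which 3 tumours were sequenced. Marrow was flushed from the femurs once a mouse was paralysed, and total RNA was sequenced after removal of ribosomal RNA, so each library is 1 mouse and can hold RNA of mouse cells beside the human tumour. As there is 1 group, no difference between groups was tested, and every value below is a level with its spread over 3 libraries.

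Plasma cells are the antibody-secreting end stage of the B cell lineage, and multiple myeloma is a cancer of plasma cells in the bone marrow. To become one, a B cell shuts off the factors that hold B cell identity, such as PAX5, and turns on IRF4, PRDM1 and XBP1. The last of these expands the endoplasmic reticulum (ER), where immunoglobulin chains are folded and joined. Syndecan-1, encoded by SDC1, is the surface protein by which plasma cells are commonly recognised.

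The deposited counts summed to 4500326, 6287708 and 5703636 in PBS 1, PBS 2 and PBS 3. Levels are CPM, a gene's counts scaled to a library total of 1000000, given as mean ± SD (n = 3). Levels per kilobase of exon (CPM per kb) allow for the length of a gene. Orders, sums, classes and list medians given in unscaled CPM also depend on length. At these depths 1 count was worth 0.222, 0.159 and 0.175 CPM, and a gene with no count could still stand at up to 0.667, 0.477 and 0.526 CPM (3 counts). Over the 3 libraries together that limit was 0.182 CPM, and it covers counting error only. All 3 marker genes of the label were abundant in each library. SDC1 stood at 1075, 1124 and 1122 CPM, XBP1 at 2450, 2206 and 2105 CPM, and IRF4, a factor on which myeloma cells depend, at 805, 927 and 906 CPM.

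RNA from mitochondrial DNA held 38.7%, 35.5% and 37.6% of the counts. The exact binomial 95% intervals were 38.66% to 38.75%, 35.50% to 35.57% and 37.52% to 37.60%, which cover counting error only. Nearly all of it was ribosomal RNA of the mitochondrion (35.7 ± 1.59% of counts). MT-RNR2, the large mitochondrial ribosomal RNA, held 345132 ± 16366 CPM, and MT-RNR1, the small one, 11602 ± 563 CPM. Per kilobase these levels were 221380 ± 10498 and 12162 ± 591 CPM per kb, so the large ribosomal RNA was far above the small one in this ribosome-depleted material. The 13 mitochondrial messenger RNAs held 1.59 ± 0.0425% of counts. They ran from MT-CO3, a cytochrome c oxidase subunit, at 5127 CPM per kb, to MT-ND6 at 45.8 CPM per kb, the one whose template is the other DNA strand. Nuclear protein-coding genes held 57.0 ± 1.63% of all counts and 90.8 ± 0.288% of the nuclear ones. Long noncoding RNAs held 1.88 ± 0.00971%, small structural RNAs 1.88 ± 0.0852%, pseudogenes 0.423 ± 0.0212%, clustered histone genes 0.384 ± 0.0262%, and immunoglobulin and T cell receptor segments 0.124 ± 0.00510%.

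Of 57773 counted gene identifiers, 31609 (54.7%) had no count in any of the 3 libraries, and 12190 reached 1 CPM in all 3. The threshold of 10 CPM was reached in all 3 by 8180, that of 100 CPM by 1271 and that of 1000 CPM by 26. Expression was spread over many genes: the 1103 to 1127 most abundant nuclear genes held 50% of the nuclear counts, and 5924 to 5927 held 90%. Of 19170 nuclear protein-coding genes (Y-linked genes left out), 10594 (55.3%) reached 1 CPM, 7845 (40.9%) reached 10 CPM and 1199 (6.25%) reached 100 CPM in all 3 libraries. Another 4803 (25.1%) had 0 counts, and the median level was 4.16 CPM. These shares are the background for every gene list below. Without mitochondrial genes in the total, the number at 100 CPM or more was 2344 and the number at 1000 CPM or more was 61.

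**Figure D1:**
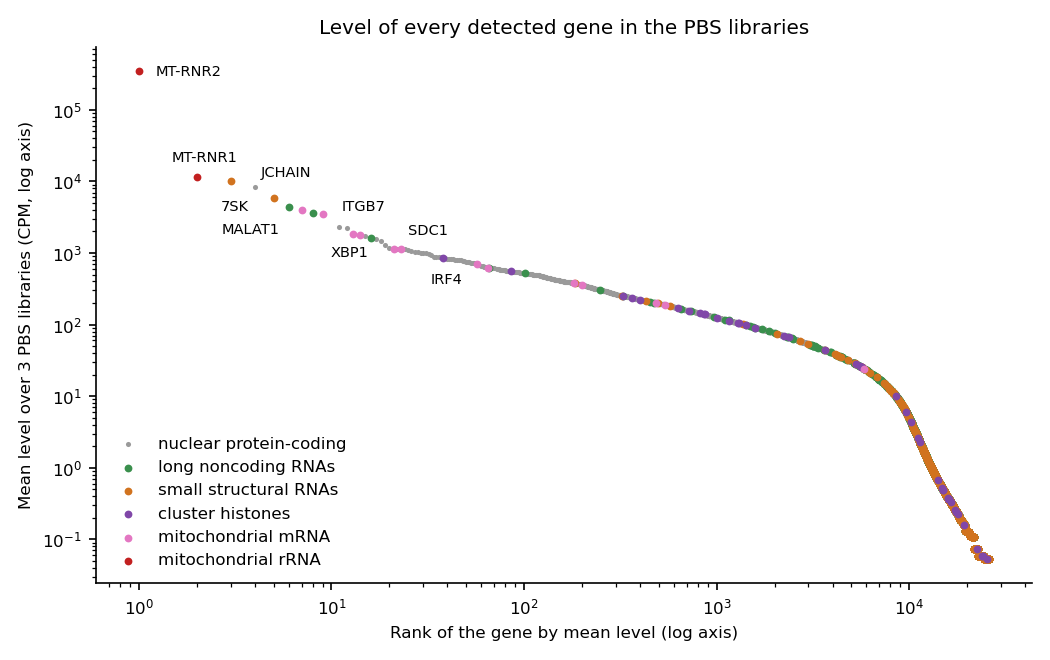
Mean level over the 3 PBS libraries (CPM, log axis) of every gene with a count, against its rank (log axis), with 1 point per gene coloured by RNA class. MT-RNR2 at 345132 CPM stands alone at the top, followed by MT-RNR1, 7SK and JCHAIN.

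JCHAIN was the most abundant nuclear protein-coding gene by a wide margin. It encodes the joining chain that links IgA or IgM units, and it stood at 8117, 8479 and 8360 CPM, or 4951 ± 110 CPM per kb. The next 2 outside the histone clusters were XBP1 (744 ± 58.5 CPM per kb) and ITGB7 (512 ± 11.7 CPM per kb), the beta7 chain of integrins that bind mucosal addressin and E-cadherin. ITGB7 stood at 2236, 2339 and 2304 CPM. Of its exons 42.1% overlap another gene on either strand, and the strand setting of the counting is not given, so its level is less certain. The libraries agreed on all 3 of these genes within a coefficient of variation (CV) of 7.87%.

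The further genes among the 15 highest per kilobase came from a few functions. Translation gave EEF2, elongation factor 2 (386 ± 13.1 CPM per kb). Plasma cell and secretory functions gave MZB1, a chaperone of antibody assembly (319 ± 10.0 CPM per kb), SDC1 (308 ± 7.71 CPM per kb), the ER calcium-binding chaperone CALR (312 ± 19.2 CPM per kb) and the ER form of heat shock protein 90, HSP90B1 (312 ± 10.4 CPM per kb). MZB1, CALR, HSP90B1 and SDC1 thus lay within the spread of one another. PIM2, a survival kinase, stood at 406 ± 38.9 CPM per kb. Also among them were TMSB10, ACTG1, GAPDH, SRGN and S100A11, at 292 to 360 CPM per kb, genes of the cytoskeleton, glycolysis, secretory granules and calcium binding. With the longest transcript as the length, 10 of these 15 genes stayed among the 15 highest, and in unscaled CPM 8 did. CANX, ZBTB38, B2M, EDEM3, PRKD3, SSR3 and TENT5C, with 1008 to 1705 CPM, belonged to the 15 highest only in unscaled CPM. Linker histones would also rank near the top, with HIST1H1E at 1146 and HIST1H1C at 865 CPM per kb.

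Plasma cell identity genes were present almost without exception. Of 22 listed genes 21 reached 10 CPM in all 3 libraries, against 40.9% of all protein-coding genes, and 15 reached 100 CPM. Their median level was 279 CPM. Beyond those above, TNFRSF17, which encodes the receptor BCMA, stood at 222 CPM per kb, and SLAMF7, CD38 and GPRC5D, further surface proteins of plasma cells, at 82.6, 74.3 and 67.5 CPM per kb. PRDM1, the repressor that ends the B cell programme, stood at 317, 328 and 285 CPM. The exception was CD27, a receptor of memory B cells and normal plasma cells, with 0 counts in all 3 libraries.

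B cell identity genes were mostly low. Of 22 listed genes 5 (22.7%) had 0 counts in all 3 libraries, near the 25.1% of all protein-coding genes. PAX5, the factor that commits cells to the B lineage, the surface protein CD22 and the factor SPIB were among these 5. MS4A1, which encodes CD20, had counts in PBS 3 alone (0.175 CPM). The median level of the list was 0.525 CPM, against 4.16 CPM over all protein-coding genes. At 10 CPM or more in all 3 libraries were 5 members (22.7%), against 40.9%. These 5 included the repressor BACH2 (22.4, 30.1 and 24.7 CPM), CIITA, the activator of MHC class II genes (25.8, 23.5 and 26.6 CPM), CR2, a complement receptor (17.3, 25.4 and 24.0 CPM), and the signalling adaptor BLNK (24.4, 14.2 and 14.2 CPM). CD79A and CD79B, the signalling chains of the B cell receptor, stood at 11.9 ± 1.01 and 14.1 ± 4.01 CPM. Per kilobase the highest of the B cell list was CD79A at 7.91 CPM per kb, below the median of the plasma cell list at 70.9 CPM per kb.

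**Figure D2:**
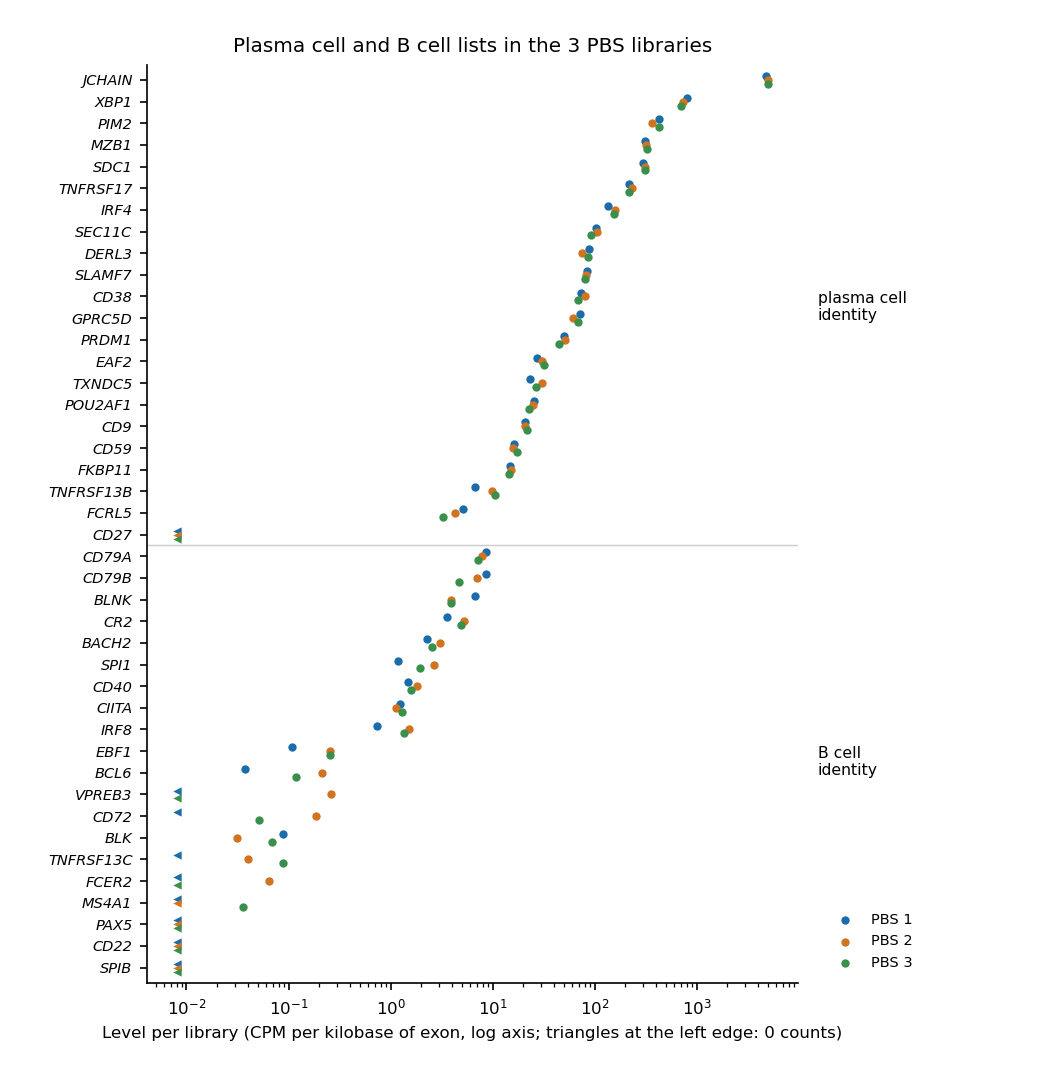
Level of listed plasma cell and B cell genes in PBS 1, PBS 2 and PBS 3 (CPM per kilobase of exon, log axis), 1 point per library, with triangles at the left edge for 0 counts. JCHAIN, XBP1 and PIM2 lie highest, and CD27, PAX5, CD22 and SPIB have 0 counts in all 3 libraries.

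The promoters of 4 abundant genes and of the undetected PAX5 are shown to let their base composition be read beside the levels. Each is the 250 bases upstream of the first listed start in RefSeq (GRCh38.p14), 5′ to 3′ along the gene's strand, with every CpG in capitals.
JCHAIN, 8318 CPM, chr4:70666509-70666758, minus strand: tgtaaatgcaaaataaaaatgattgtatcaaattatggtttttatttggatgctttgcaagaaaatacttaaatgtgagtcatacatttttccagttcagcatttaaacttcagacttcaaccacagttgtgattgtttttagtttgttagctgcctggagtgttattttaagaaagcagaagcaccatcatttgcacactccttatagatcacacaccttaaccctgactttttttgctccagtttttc
ITGB7, 2293 CPM, chr12:53207252-53207501, minus strand: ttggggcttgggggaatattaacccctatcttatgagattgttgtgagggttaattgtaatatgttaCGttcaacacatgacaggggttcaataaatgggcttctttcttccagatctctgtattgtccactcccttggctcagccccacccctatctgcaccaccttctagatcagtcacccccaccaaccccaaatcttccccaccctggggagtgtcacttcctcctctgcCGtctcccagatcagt
SDC1, 1107 CPM, chr2:20225476-20225725, minus strand: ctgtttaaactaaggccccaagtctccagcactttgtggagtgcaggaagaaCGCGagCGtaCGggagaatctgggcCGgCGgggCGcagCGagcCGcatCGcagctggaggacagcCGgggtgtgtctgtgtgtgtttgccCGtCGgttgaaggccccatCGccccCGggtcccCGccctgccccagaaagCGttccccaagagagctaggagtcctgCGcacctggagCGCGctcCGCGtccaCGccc
IRF4, 879 CPM, chr6:391502-391751, plus strand: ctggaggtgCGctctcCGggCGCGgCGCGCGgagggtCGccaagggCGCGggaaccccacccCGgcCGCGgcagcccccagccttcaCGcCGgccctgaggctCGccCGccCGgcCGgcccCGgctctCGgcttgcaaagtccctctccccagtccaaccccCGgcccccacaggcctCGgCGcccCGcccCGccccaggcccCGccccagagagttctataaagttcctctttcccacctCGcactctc
PAX5, 0 counts, chr9:37034269-37034518, minus strand: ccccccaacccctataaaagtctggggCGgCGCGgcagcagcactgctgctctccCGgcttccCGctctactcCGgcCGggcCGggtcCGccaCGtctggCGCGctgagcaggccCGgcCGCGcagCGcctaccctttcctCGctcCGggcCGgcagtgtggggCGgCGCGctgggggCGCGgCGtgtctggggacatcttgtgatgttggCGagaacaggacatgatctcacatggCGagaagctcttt

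The JCHAIN promoter held 0 CpG and the ITGB7 promoter 2, while the SDC1 and IRF4 promoters held 23 and 28 and that of PAX5 held 27. Both CpG-free and CpG-rich promoters thus belonged to highly abundant genes, and a CpG-rich one to a gene with no count. Across genes the medians rose with level, but the classes overlapped widely. The median ratio of observed to expected CpG was 0.866 for 1015 genes at 100 CPM or more (quartiles 0.717 and 0.987). It was 0.846 for 5593 genes at 10 to 100 CPM (0.713 and 0.957) and 0.789 for 2243 genes at 1 to 10 CPM (0.576 and 0.912). Promoters were found for 85.6%, 84.6% and 82.1% of these classes, but for 72.2% of genes with 0 counts and 73.7% of those below 1 CPM, so the check is void for the last 2. The motif TATAAA, searched on both strands, stood in 7.00%, 4.26% and 5.75% of promoters in the first 3 classes. Over all 15057 matched protein-coding genes the share was 8.83%. Among all 27305 promoters of the table, a wider set, it was 11.1%.

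Immunoglobulin genes gave a one-sided picture. Lambda variable segments summed to 1158, 1065 and 1127 CPM, heavy chain variable segments to 1.56, 0.636 and 1.23 CPM, and kappa variable segments to 0.444, 0.159 and 0.351 CPM. The most abundant segment, IGLV2-11, stood at 411, 404 and 403 CPM and held 36.4% of the lambda sum. IGLV2-18 (251 ± 20.6 CPM), IGLV2-14 (251 ± 18.5 CPM) and IGLV2-23 (145 ± 4.13 CPM) followed. These segments are near-identical copies of one family, so the way reads were shared among them is uncertain, while their sum is less so. The kappa constant gene IGKC had 0 counts, as did IGHD, IGHE and IGLC1. The lambda constant segments summed to only 16.4 ± 0.632 CPM, and IGLC2 and IGLC3, which resemble each other closely, stood at 0.493 ± 0.361 and 1.19 ± 0.528 CPM. IGLL5, an immunoglobulin-like gene whose exons contain all of IGLC1, stood at 109, 119 and 132 CPM, so reads of either cannot be told apart. Among heavy chain constant genes IGHG1 led with 78.4, 67.9 and 71.0 CPM, IGHG3 reached 8.23 ± 0.958 CPM, and IGHM (0.159 ± 0.275 CPM) and IGHA1 (0.789 ± 0.703 CPM) were counted near the detection limit. IGHA1 and IGHA2 are near-identical copies between which reads may go uncounted, so the low level of IgA genes is uncertain.

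Of the genes that myeloma translocations place beside the heavy chain locus, MAF, CCND2 and MYC were abundant. MAF, a leucine zipper transcription factor, stood at 364, 347 and 315 CPM. Its relative MAFA stood at 0.0530 ± 0.0918 CPM. CCND2, a D-type cyclin, stood at 405, 503 and 399 CPM, against 21.4 ± 1.45 CPM for CCND3 and 2.02 ± 0.549 CPM for CCND1. Per kilobase the order was CCND2 (60.9 CPM per kb), CCND3 (3.70) and CCND1 (0.419), and the ranges over libraries did not overlap. FGFR3, a receptor tyrosine kinase, had counts in PBS 3 alone (0.175 CPM), whereas NSD2, the histone methyltransferase activated by the same translocation, stood at 166 ± 12.8 CPM. MYC stood at 515, 476 and 485 CPM, or 164 CPM per kb. All 6 genes listed as MAF targets in myeloma reached 10 CPM in all 3 libraries, with ITGB7 and CCND2 among them. DEPTOR, an inhibitor of the mTOR kinase, stood at 85.1 CPM per kb, the chemokine receptors CCR1 and CX3CR1 at 44.7 and 10.3 CPM per kb, and the kinase NUAK1 at 2.85 CPM per kb. With 4 of 6 at 100 CPM or more, against 6.25% of protein-coding genes, the list stood high. It was drawn up with earlier results of these data known.

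Tumour suppressors and factors of the lineage were mostly present. Of 24 genes listed as tumour suppressors of myeloma 20 reached 10 CPM in all 3 libraries. TENT5C, a poly(A) polymerase often mutated in myeloma, led at 175 CPM per kb. RB1, a brake on the cell cycle, stood at 48.3 ± 3.05 CPM. The cell cycle inhibitors CDKN2A and CDKN2B had 0 counts in all 3 libraries, and their relative CDKN2C stood at 0.244 CPM. CDKN1B, an inhibitor of another family, stood at 121, 125 and 122 CPM. Among 20 B lineage and myeloma factors 14 reached 10 CPM, with MEF2C at 527 ± 8.22 CPM, TCF4 at 242 ± 30.7 CPM and TCF3 at 156 ± 6.57 CPM. SPIC, a factor of red pulp macrophages, had 0 counts. In the NF-kB list 19 of 22 genes reached 10 CPM. Highest per kilobase was BIRC3, a ubiquitin ligase of the pathway, at 21.8 CPM per kb, and LTBR, the lymphotoxin receptor, was at 0.111 CPM.

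Genes of cell division were expressed throughout. All 20 proliferation genes reached 10 CPM in all 3 libraries, and 11 reached 100 CPM. PCNA, the sliding clamp of DNA replication, led per kilobase at 91.9 CPM per kb. MKI67 stood at 381, 562 and 573 CPM, and RRM2, a ribonucleotide reductase subunit, at 256, 336 and 340 CPM. PBS 1 was the lowest library for 20 of 20 of these genes, against 46.5% of 10987 protein-coding genes with a mean of 1 CPM or more. The same 20 of 20 came out under each of the 4 other library scalings, where that background was 36.9% to 41.5%. These genes are not independent of each other within a library, and all scalings use the same counts. PBS 1 was also the shallowest library and the one with the highest mitochondrial share (38.7%), and their part in this order was not tested. CDK6 (38.0 CPM per kb) stood above CDK4 (25.1 CPM per kb), both being kinases that D-type cyclins activate, and the testis cyclin CCNA1 had 0 counts. Of the exons of CDK4 43.2% overlap another gene.

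Among the 17 genes of the BCL2 family, which decide over mitochondrial apoptosis, MCL1 stood far above the others. The protective MCL1 was at 939, 1074 and 936 CPM (225 CPM per kb), BCL2L1, which encodes BCL-XL, at 116, 140 and 127 CPM (38.4 CPM per kb), and BCL2 at 198, 181 and 176 CPM (15.7 CPM per kb). These 3 did not overlap between libraries per kilobase, and 43.0% of the exons of BCL2L1 overlap another gene. Of the death-promoting members, BCL2L11, which encodes BIM, stood at 180, 160 and 125 CPM (23.3 CPM per kb). The pore formers BAX and BAK1 stood at 8.45 and 5.11 CPM per kb, PMAIP1 at 4.72 and BBC3 at 1.92 CPM per kb. BCL2A1, a protective member, was at 1.26 ± 0.724 CPM, and BOK, BIK and BCL2L10 had 0 counts in all 3 libraries. In all 8 of 17 genes reached 10 CPM in all 3.

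**Figure D3:**
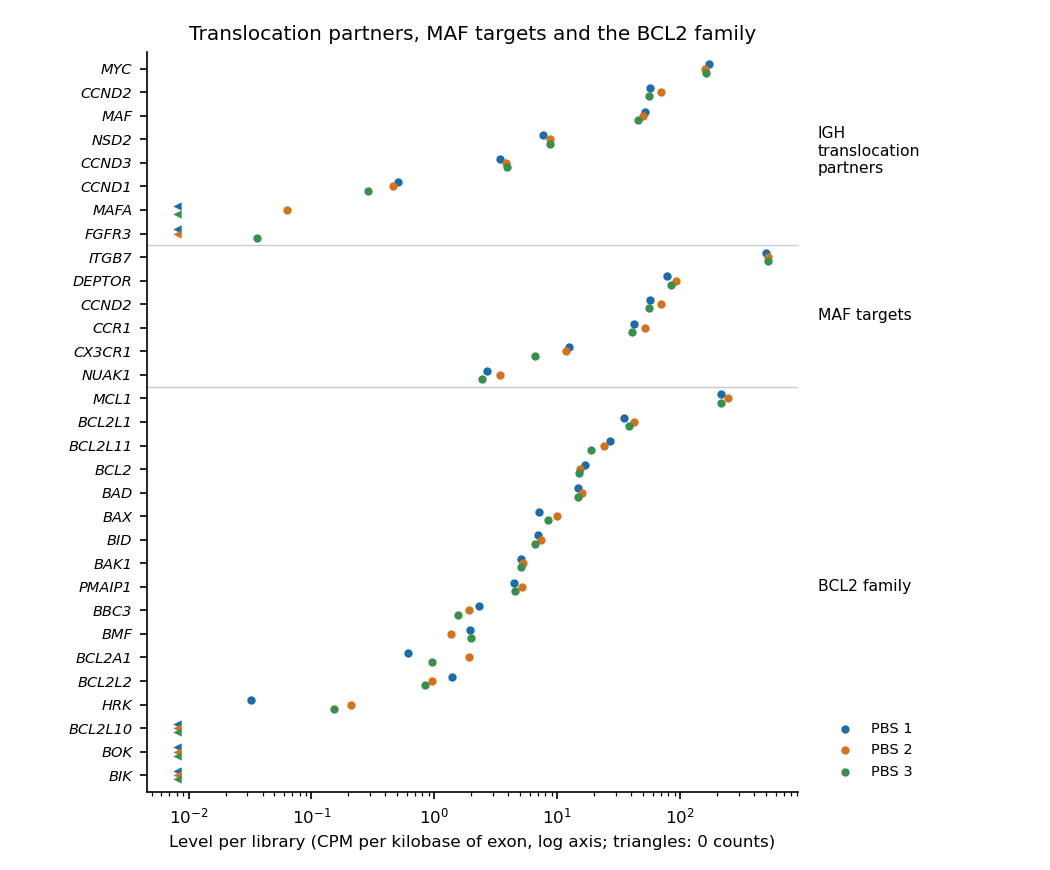
Level of genes of myeloma translocations, MAF targets and BCL2 family members in PBS 1, PBS 2 and PBS 3 (CPM per kilobase of exon, log axis), 1 point per library, with triangles for 0 counts. MYC, CCND2 and MAF stand above CCND3 and CCND1, ITGB7 leads the MAF targets, and MCL1 leads the BCL2 family at 225 CPM per kb.

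The secretory apparatus was abundant throughout. Of 23 ER chaperones and disulfide enzymes 22 reached 10 CPM and 17 reached 100 CPM in all 3 libraries, with a median of 207 CPM. The calcium-dependent lectin chaperone CANX stood at 1650, 1757 and 1707 CPM, HSP90B1 at 1464, 1515 and 1417 CPM, and protein disulfide isomerase P4HB at 985, 1016 and 996 CPM. HSPA5, which encodes BiP, the main chaperone of the ER lumen, stood at 188, 222 and 210 CPM, or 52.9 CPM per kb. Per kilobase it was lower than CALR, HSP90B1, CANX, PDIA4 (185 CPM per kb) and PDIA6 (150 CPM per kb). All 23 genes of the ER translocon and signal peptide processing reached 10 CPM, and 15 reached 100 CPM. SSR3, a subunit of the translocon-associated complex, led at 221 CPM per kb, while SPCS2, a signal peptidase subunit, stood at 20.6 CPM.

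Genes of the ER stress response are known for a promoter element made of CCAAT and CCACG with 9 bases between them, bound by NF-Y with ATF6 or XBP1. The element was searched on both strands in the 250 bases upstream. It was found in 22 of 27305 promoters of the table (0.0806%) and in 19 of 15057 protein-coding genes measured here. Of 22 promoters of ER chaperone and disulfide enzyme genes 6 held it (HSPA5, HSP90B1, CALR, CANX, CRELD2 and ERO1B), and XBP1 held it too. Since the element was described in promoters of this kind, the match is a description of known biology and not evidence from these libraries. Of the 19 genes 6 lay at 100 CPM or more, namely XBP1, CANX, HSP90B1, CALR, HSPA5 and SERP1, a stabiliser of membrane proteins in the ER (435 ± 28.6 CPM). Another 5 lay below 1 CPM or at 0, among them NLRP4 and GLRA2. The 5 most familiar promoters are shown with the element in capitals, on either strand, in GRCh38.p14 from RefSeq.
XBP1, 2254 CPM, chr22:28800570-28800819, minus strand: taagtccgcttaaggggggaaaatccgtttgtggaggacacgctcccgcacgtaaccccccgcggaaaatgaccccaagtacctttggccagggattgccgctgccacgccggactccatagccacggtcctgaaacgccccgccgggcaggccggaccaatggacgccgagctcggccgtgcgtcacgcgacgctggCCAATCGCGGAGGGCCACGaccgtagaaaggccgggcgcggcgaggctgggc
HSPA5, 207 CPM, chr9:125241344-125241593, minus strand: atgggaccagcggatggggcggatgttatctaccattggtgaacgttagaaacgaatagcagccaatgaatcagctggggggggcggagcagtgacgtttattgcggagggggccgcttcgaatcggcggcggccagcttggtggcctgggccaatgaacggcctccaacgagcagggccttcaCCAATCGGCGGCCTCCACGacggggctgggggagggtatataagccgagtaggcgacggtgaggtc
HSP90B1, 1465 CPM, chr12:103930160-103930409, plus strand: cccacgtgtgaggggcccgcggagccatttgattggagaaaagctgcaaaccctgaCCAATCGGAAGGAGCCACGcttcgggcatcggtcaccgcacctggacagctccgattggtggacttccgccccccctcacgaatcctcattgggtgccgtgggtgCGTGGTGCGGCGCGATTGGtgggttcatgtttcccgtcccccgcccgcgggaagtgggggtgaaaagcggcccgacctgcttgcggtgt
CALR, 847 CPM, chr19:12938359-12938608, plus strand: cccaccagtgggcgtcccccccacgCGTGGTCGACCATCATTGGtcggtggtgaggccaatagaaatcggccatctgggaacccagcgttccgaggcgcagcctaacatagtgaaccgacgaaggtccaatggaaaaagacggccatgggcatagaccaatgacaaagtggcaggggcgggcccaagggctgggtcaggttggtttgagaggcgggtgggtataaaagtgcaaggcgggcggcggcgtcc
CANX, 1705 CPM, chr5:179698679-179698928, plus strand: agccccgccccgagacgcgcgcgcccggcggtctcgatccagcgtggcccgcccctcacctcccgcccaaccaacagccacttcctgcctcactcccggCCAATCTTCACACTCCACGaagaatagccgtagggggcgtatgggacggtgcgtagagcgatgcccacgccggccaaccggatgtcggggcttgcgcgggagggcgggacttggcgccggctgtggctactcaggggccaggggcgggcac

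HSP90B1 carried 2 copies, on opposite strands, and the others 1 each. On the CALR promoter the element lay on the strand opposite to the gene.

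Of 21 genes listed as targets or partners of myeloma drugs 19 reached 10 CPM in all 3 libraries. PSMB5, the proteasome subunit that bortezomib binds, stood at 26.4, 22.4 and 18.9 CPM (12.8 CPM per kb). Of 18 counted 20S proteasome genes 15 reached 10 CPM, with PSMB4 highest at 119 CPM per kb. The testis subunit PSMA8 was at 0.133 CPM and the thymus subunit PSMB11 had 0 counts, while PSMA6, at 4.63 CPM, has pseudogene copies and is uncertain. FDX1, a mitochondrial ferredoxin, and SLC31A1, a copper importer, stood at 25.3 and 42.9 ± 0.938 CPM. CRBN, the target of lenalidomide, stood at 29.9 CPM, its substrates IKZF1 and IKZF3 at 123 ± 2.32 and 78.6 ± 8.51 CPM, and the glucocorticoid receptor NR3C1 at 126 ± 2.07 CPM. ABCB1, a drug efflux pump, was at 4.95 ± 0.918 CPM, and ANPEP, a peptidase that activates melflufen, at 0.376 CPM.

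Adhesion and homing receptors differed from gene to gene. Of 26 integrin genes 11 (42.3%) reached 10 CPM in all 3 libraries, near the 40.9% of all protein-coding genes. Fewer integrin genes had 0 counts (3.85%, against 25.1%). ITGB7 was accompanied by ITGA4, its partner chain in the alpha4beta7 receptor, at 316, 342 and 343 CPM, and ITGAE, its other partner, stood at 13.4 ± 1.25 CPM. ITGA8 stood at 164 ± 7.21 CPM and ITGB1 at 78.3 ± 2.20 CPM. The platelet integrin chain ITGB3 had 0 counts. Of 22 chemokine receptor genes 6 (27.3%) reached 10 CPM and 7 (31.8%) had 0 counts, against 40.9% and 25.1% of all protein-coding genes. CCR2 was the highest at 268, 212 and 180 CPM, with PBS 1 above PBS 2 and PBS 3. CXCR4, the receptor by which plasma cells home to marrow, stood at 88.4, 60.8 and 54.4 CPM.

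Few growth factor receptors reached 10 CPM. Of 40 receptor tyrosine kinase genes 5 (12.5%) did so in all 3 libraries, against 40.9% of all protein-coding genes. None reached 100 CPM in all 3, and 26 were below 1 CPM in at least 1 library. Of the 40 genes 4 (10%) had 0 counts in all 3 (EGFR, ALK, LTK and INSRR), against 25.1% of all protein-coding genes. The highest was IGF2R, a receptor without kinase activity that was listed with them, at 97.8, 118 and 119 CPM, followed per kilobase by DDR2 (2.82 CPM per kb), INSR (2.66), MET (2.08) and IGF1R (2.02). IGF1, a ligand of IGF1R, was itself counted at 99.3, 99.6 and 101 CPM, but 82.4% of its exons overlap another gene, so that level is uncertain. KIT was at 0.329 CPM and ERBB3 at 0.0530 CPM. Of 25 cytokine receptor genes 13 (52%) reached 10 CPM in all 3 libraries, near the 40.9% of all protein-coding genes. Another 4 (16%) had 0 counts, against 25.1%. IL6ST, the signalling chain for interleukin 6, stood at 439, 381 and 365 CPM, IL6R at 70.7, 81.7 and 89.6 CPM, and the ligand IL6 at 0.111 CPM. CSF2RA and IL3RA were listed at 0, but they lie in the pseudoautosomal region shared by X and Y, where reads with 2 placements may go uncounted.

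Antigens used for immunotherapy and genes of antigen presentation differed by class. Of 22 surface antigens 13 reached 10 CPM, among them CD48 at 334 ± 16.4 CPM, CD46 at 238 ± 3.82 CPM, CD47 at 183 ± 5.46 CPM and the adhesion molecule NCAM1 at 21.3 ± 5.48 CPM. CD33 had 0 counts, and CD274, which encodes PD-L1, stood at 2.04 CPM. Of 13 MHC class I genes 12 reached 10 CPM, led by B2M at 194 CPM per kb. Of 13 class II genes 7 did. The invariant chain CD74 stood at 658, 706 and 672 CPM and HLA-DRA at 184, 187 and 161 CPM, whereas HLA-DQA1 and HLA-DQB1 stood at 1.16 ± 0.806 and 3.56 ± 1.21 CPM. HLA genes vary in sequence between people and resemble each other, so their counts depend on how reads were placed. Among 25 secreted factors 6 reached 10 CPM. The highest was ADM, a vasodilator peptide, at 107 CPM per kb. DKK1, an inhibitor of bone formation secreted by some myelomas, stood at 3.14 ± 0.962 CPM, VEGFA at 23.6 ± 3.93 CPM, and SOST, FRZB and CXCL8 had 0 counts.

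HOX genes and cancer-testis antigens marked the other end of the scale, with 66.7% and 65.2% at 0 counts against 25.1% of protein-coding genes. Of 39 HOX genes 26 had 0 counts, none reached 10 CPM, and HOXB7 was highest per kilobase at 0.933 CPM per kb, followed by HOXB4 at 0.862 CPM per kb. Of 23 cancer-testis antigens 15 had 0 counts, but 3 reached 10 CPM in all 3 libraries. CTAG2 stood at 50.9, 47.4 and 45.2 CPM, MAGEA1 at 44.9, 50.4 and 46.8 CPM and LAGE3 at 17.2 ± 4.21 CPM. Zeros of MAGEA3, MAGEA6, CTAG1B and the GAGE and SSX genes are uncertain, since these genes have near-identical copies between which reads may go uncounted. Of 21 haematopoietic lineage factors 15 were below 1 CPM in at least 1 library, while LEF1 stood at 52.1 ± 1.47 CPM. GATA1 and GFI1B were at 0, a share of 9.52% against 25.1% of all protein-coding genes. Among 47 nuclear receptors 11 (23.4%) reached 10 CPM, against 40.9% of all protein-coding genes. Of these receptors 55.3% reached 1 CPM in all 3 libraries, as did 55.3% of all protein-coding genes, and 7 (14.9%) had 0 counts. Some tissue-restricted families were mostly at 0: 326 of 350 olfactory receptors, 91 of 92 keratin-associated proteins, 47 of 55 keratins and 39 of 39 beta-defensins. The share over all protein-coding genes was 25.1%. Zeros were less frequent among claudins (14 of 24), bitter taste receptors (8 of 24), KCN potassium channels (37 of 94) and cadherins with protocadherins (35 of 84). At the opposite end, 75 of 84 cytosolic ribosomal protein genes and 17 of 17 tRNA synthetases reached 10 CPM.

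**Figure D4:**
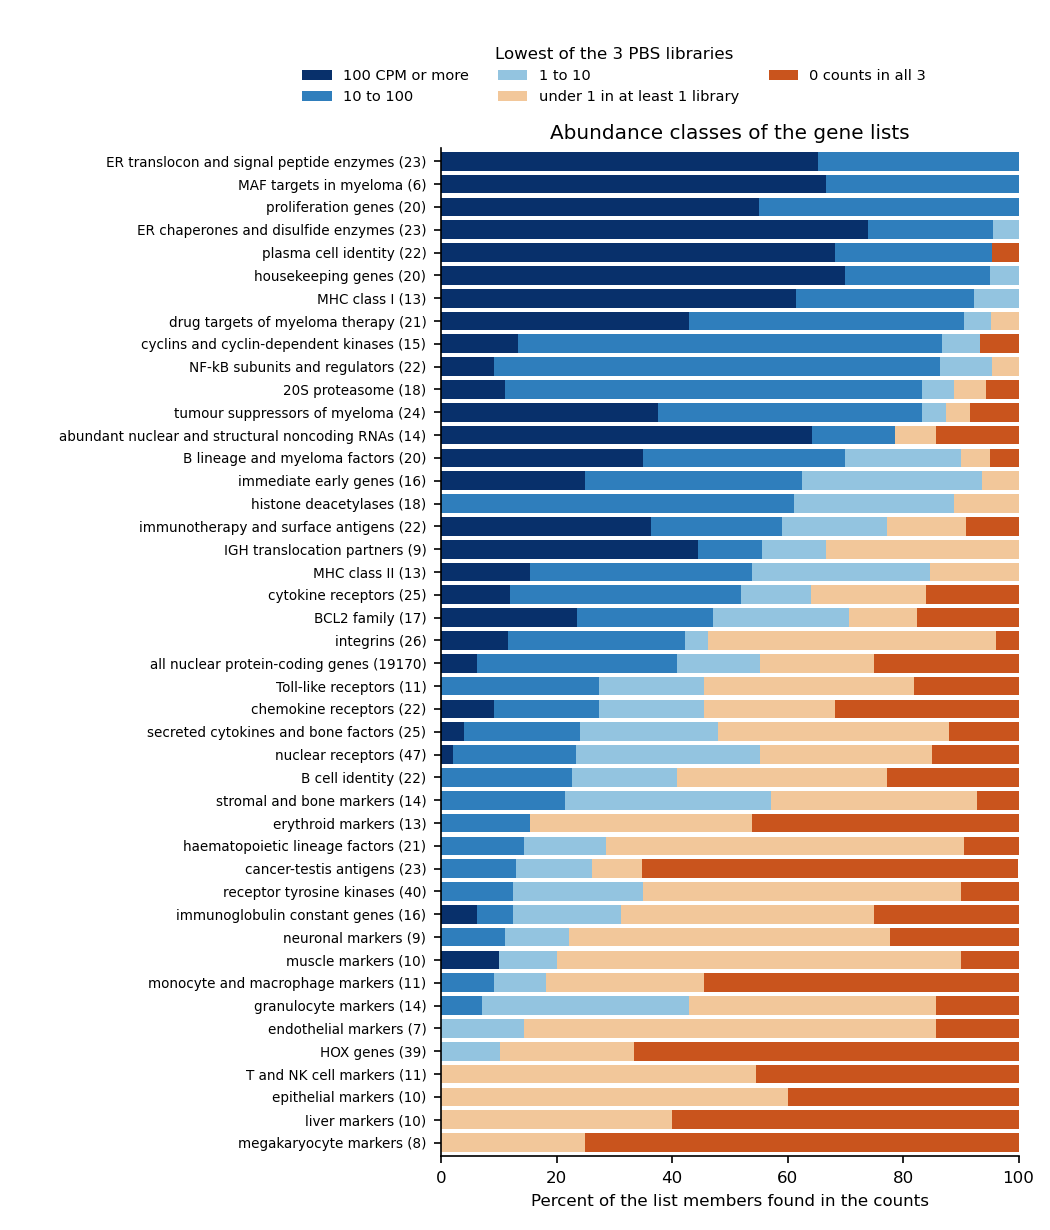
Percent of the members of each gene list (number found in brackets) in 5 abundance classes set by the lowest of the 3 PBS libraries, with all nuclear protein-coding genes as reference. ER, proliferation and plasma cell lists are mostly at 10 CPM or more, and HOX, T and NK cell, epithelial, liver and megakaryocyte lists hardly reach 1 CPM.

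Noncoding RNA was dominated by few species. The gene named RF00100, the family name of 7SK, an RNA that restrains transcription elongation, stood at 10462, 9966 and 9561 CPM, and RMRP, the RNA of a ribonuclease, at 6290, 5744 and 5744 CPM. MALAT1, a long nuclear RNA, was counted at 3835, 4619 and 4608 CPM, with PBS 1 lowest. MIR663AHG stood at 1624 ± 187 CPM, and SNHG3, NEAT1 and GAS5 stood at 619 ± 22.5, 517 ± 50.2 and 253 ± 16.5 CPM. The imprinted H19 and the HOX antisense RNA HOTAIR had 0 counts. Total RNA libraries recover short RNAs incompletely, and overlapping small RNA genes share reads, so these levels do not compare molecule numbers.

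Markers of cells other than plasma cells were low, as far as human gene counts can show it. All 11 T and NK cell markers lay below 1 CPM in at least 1 library, and their summed level was 0.667 to 1.27 CPM. The 8 megakaryocyte markers summed to 0.318 to 0.701 CPM with PF4, PPBP, GP9 and GP1BA at 0, the 7 endothelial markers to 2.81 to 5.33 CPM, the 10 epithelial markers to 0.526 to 1.43 CPM and the 10 liver markers to 1.33 to 2.86 CPM with ALB at 0. The 13 erythroid markers summed to 44.5 to 64.9 CPM, nearly all of it HBB (27.0 ± 6.18 CPM) and HBD (27.6 ± 4.87 CPM), and GYPB, SLC4A1, AHSP and HBA1 had 0 counts. HBA1 has a near-identical copy, and its 0 is uncertain. The 14 granulocyte markers summed to 27.4 to 46.6 CPM with S100A8 and AZU1 at 0, and the 11 monocyte and macrophage markers to 15.3 to 31.8 CPM with CD14 and CD163 at 0. Stromal and bone markers summed to 109 to 136 CPM over 14 genes, led per kilobase by SPARC (6.53 CPM per kb) and RUNX2 (5.48 CPM per kb), while COL1A1 stood at 3.35 ± 0.977 CPM and IBSP at 0. In bulk marrow, fewer cells of a type and less RNA per cell cannot be told apart. How reads of mouse cells were handled is not given in the sources used here, and the part of host cells in these levels was not tested. Among 10 muscle markers only TTN reached 100 CPM (102, 131 and 107 CPM), and with its very long exons this was 0.952 CPM per kb.

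The 3 libraries resembled each other closely. The common biological coefficient of variation, the spread beyond counting error, was 0.0586 (edgeR, over 11283 genes). Pearson's r of log2 CPM across 12173 genes was 0.986 to 0.988 for the 3 pairs. Genes are not independent replicates, and the pairs share libraries. The median CV was 22.0% at 1 to 10 CPM, where the spread expected from counting is 24.1%. It was 8.07% at 10 to 100 CPM, 5.59% at 100 to 1000 CPM and 4.49% above, where counting gives 1.10%. A median of CVs from 3 libraries each tends to lie below the true spread. The 22.0% beside 24.1% thus does not show less spread than counting error. Of 8298 named genes with a mean of 10 CPM or more 34 had a CV over 30% and 3 over 50%. As a check for a library deposited more than once, the chi-square per degree of freedom of each pair was 2.25 to 3.24, so each library was counted as 1 replicate.

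The most variable genes were of a few kinds. NR4A1, an immediate early nuclear receptor, stood at 10.0, 24.0 and 5.79 CPM, TLR7, a receptor for single-stranded RNA, at 13.1, 29.6 and 13.3 CPM, and LYZ, the lysozyme of myeloid cells, at 11.3, 25.1 and 11.2 CPM. PBS 2 was the high library in all 3. It was also the highest for 4 of 4 monocyte and macrophage markers and 5 of 7 granulocyte markers with a mean of 1 CPM or more, against 44.9% of protein-coding genes. The summed monocyte and macrophage level was 15.3, 31.8 and 15.3 CPM in PBS 1, PBS 2 and PBS 3. LYZ is 1 of these 4 markers and gave 11.3, 25.1 and 11.2 CPM of that sum. Both values thus largely repeat a gene that was named for its spread. PBS 2 was also highest for 12 of 15 immediate early genes, in each of the 5 library scalings, with KLF6 at 148, 239 and 115 CPM, FOS at 206, 267 and 174 CPM and JUN at 427, 592 and 439 CPM. NR4A1, an immediate early gene, was itself named for its spread with PBS 2 high, so this count does not stand apart from it. Genes of a list are not independent of each other within a library, and all scalings use the same counts. The part of host myeloid cells or of handling in these values was not tested.

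Other variable genes singled out another library. HES1, a Notch target, stood highest in PBS 1 (50.4 CPM, against a mean of 32.6), as did the phosphodiesterase PDE4B (46.2 CPM, against 33.0) and the sodium-calcium exchanger SLC8A1 (23.1 CPM, against 15.4). PCDH1 was low in PBS 3 (4.91 CPM), and TRPV2 was low in PBS 1 (6.22 CPM), as was CCNK, whose exons overlap another gene by 59.5%. The smallest CVs, 0.0567% to 0.253%, belonged to ABCF3, RFX7, GGA2, SLC38A7 and NCKAP1L. They lie far below counting error at such levels and are the minimum over 8298 genes with 3 libraries each, so they do not show that these genes are steady.

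**Figure D5:**
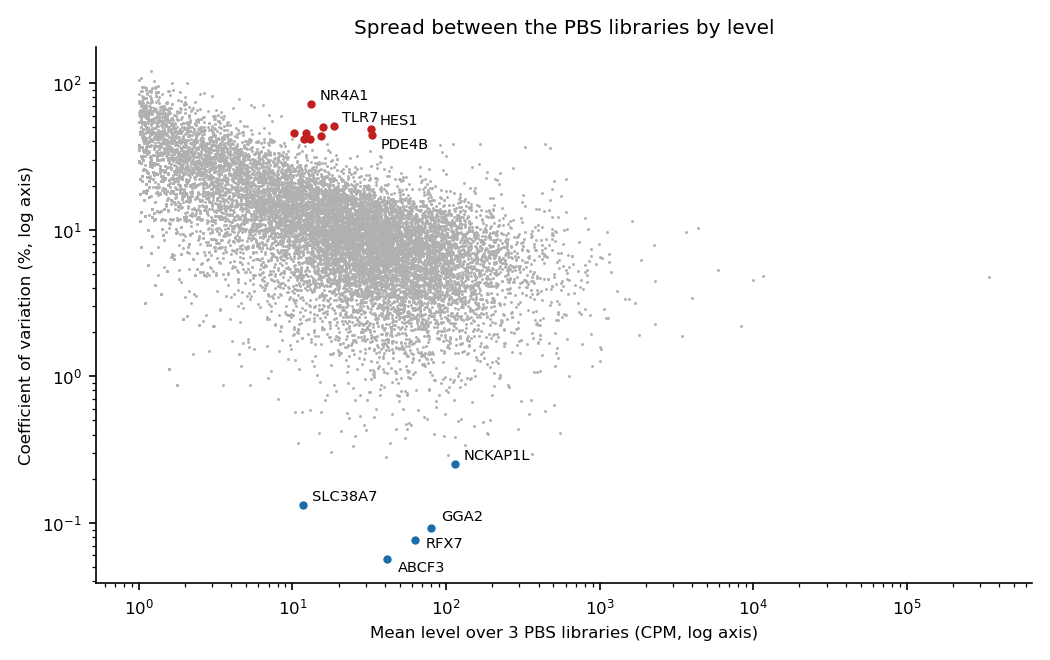
Coefficient of variation over the 3 PBS libraries (percent, log axis) against mean level (CPM, log axis), 1 point per gene of 1 CPM or more. The spread narrows as the level grows, the 10 most variable genes at 10 CPM or more are red with NR4A1 at 71.9%, and the 5 with the smallest CV are blue.

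Over the autosomes and X, the share of protein-coding genes that reached 1 CPM in all 3 libraries was lowest on chromosomes 21 (45.8% of 212 genes), 19 (46.1% of 1448) and X (46.2% of 783), and highest on chromosome 13 (61.9% of 312).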

How the data were processed

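The deposited values were raw read counts per Ensembl gene, 1 column per library. Per the submitters' processing notes, the authors used STAR 2.5.4b and featureCounts 1.6.1 with GRCh37. Whether strand was used, which annotation was counted and what was done with mouse reads is not given in the sources used here. GENCODE 29, of a later build, named 52338 of 57773 identifiers and gave exon-union lengths, and 5435 stayed without a name. CPM were computed from the total of all counted genes, and a class such as 10 CPM or more required it in all 3 libraries. Replicates were separate mice, and no test between groups was made. The spread came from edgeR 4.0.16 (R 4.3.3) with TMM over genes kept by a minimum count of 10, and was tested on simulated data. DESeq2 1.42.0 size factors, other totals and thresholds, and leaving out each library were alternatives, and 2 promoter alternatives were added after seeing the data. Promoters were the 250 bases before each gene's first listed RefSeq start (GRCh38.p14), matched by symbol for 15057 of 19050 protein-coding genes.

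Genes named were the 15 highest protein-coding genes in CPM and per kilobase, the 10 highest noncoding genes, mitochondrial genes, the highest and undetected members of 43 lists, and the 10 genes with the largest and 5 with the smallest CV at 10 CPM or more. Other list members were named for their role after their values were seen. Of 749 listed genes 733 were found. The libraries and lists were chosen with earlier results of these data known. XIST, Y-linked genes and a few further genes are not reported here, also in the figures, though list counts include them.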

Additional observations from a re-analysis of the deposited data

How the results depend on the processing

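The abundance classes depended on what the library total included. With totals of nuclear genes only, 2344 genes lay at 100 CPM or more and 61 at 1000 CPM or more in all 3 libraries, and nuclear protein-coding genes held 90.8% of counts. With the 10 most abundant nuclear genes also left out of the total, these numbers of genes were 2559 and 67. These totals raised the levels of 763 named or listed nuclear genes by a median factor of 1.59 and 1.71, as the smaller totals imply. With TMM or DESeq2 size factors over the PBS libraries, 0 of 800 such genes moved by more than 1 SD, and with TMM over all 15 libraries 42 did. The number of genes at 1 CPM or more, 12190, was at most 13230 over the other totals, left-out libraries and the class by the mean, and 13424 genes reached 0.5 CPM and 11073 reached 2 CPM. Genes with 0 counts numbered 31609, and 39692 had at most 3 counts over the 3 libraries. With mitochondrial genes included, 158 genes held 50% of counts. Of the 15 genes highest per kilobase, 8 were among the 15 highest in unscaled CPM. Leaving out each replicate gave a biological coefficient of variation of 0.0495 to 0.0670. The promoter alternatives, added after seeing the data, gave a CpG ratio difference of 0.0885 and 0.0914 between the classes at 100 CPM or more and 1 to 10 CPM, against 0.0776. Depth limits statements on absence to the floor of 3 counts. No paired analysis was possible because a single group was described and no result came from a test.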
